A study of Mus musculus with 11 samples.

Results

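Polycomb group proteins hold developmental genes silent by modifying histones, and 10 genes of their complexes are described here across the reprogramming of mouse fibroblasts. They are the methyltransferase genes Ezh2 and Ezh1, the core subunit genes Eed and Suz12, the accessory genes Jarid2, Mtf2 and Phf19, and the genes Rnf2, Bmi1 and Cbx7 of the second complex. They were taken by symbol from 22180 named genes, each through a probe set with a single symbol in the platform annotation, and each of the 10 had 1 such probe set. Total RNA of 11 samples was measured, 1 Affymetrix array each. The reprogramming arrays hold, at day 6 and at day 9, CD49d+ cells, CD73+ cells, CD73- cells and unsorted cells ("Total" in the labels), 8 arrays in all. All 8 come from passage 4 embryonic fibroblasts heterozygous for rtTA, the doxycycline-dependent activator, at the Rosa locus. These were infected with tetO viruses for Klf4, Oct4, Myc and Sox2 and kept in doxycycline from day 0. Sorted cells went through the sorter a second time. By their labels, either positive gate (CD49d or CD73) counts as poised, and the CD73- gate as non-poised. The 3 controls are the partially reprogrammed line SC4 (passage 10), V6.5 embryonic stem cells (ESC, passage 11) and uninfected Rosa-rtTA fibroblasts (MEF, passage 4). SC4 and V6.5 are single lines, the sorted cells are mixed populations chosen by a surface marker, and no group has a replicate.

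Polycomb repressive complex 2 (PRC2) methylates a lysine in the tail of histone H3 through Ezh2 or Ezh1, and needs Eed and Suz12 for activity. Jarid2, Mtf2 and Phf19 join it as alternative partners that steer it to chromatin. Polycomb repressive complex 1 (PRC1) places ubiquitin on histone H2A through Rnf2, is shaped by subunits such as Bmi1, and reads the PRC2 mark through chromobox proteins such as Cbx7. In stem cells both complexes occupy genes of later development.

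The start regions of Ezh2, Suz12 and Ezh1 are shown because the profiles nearest to Ezh2 and Suz12 include cell cycle genes (below) and those nearest to Ezh1 do not. Capitals mark matches to the words TTTCCCGC, TTTCGCGC, TTTGCCGC and TTTGGCGC, forms of the motif of E2F cell cycle factors, searched on both strands from 250 bases before to 30 bases after each RefSeq start (GRCm38.p6). The Ezh2 match lies 4 bases into the transcript, and 30 bases around it are printed. The Suz12 match begins 219 bases before its start, and the Ezh1 window, printed whole as the Suz12 window is, holds none of these words.
Ezh2, chr6:47595009-47595038, minus strand: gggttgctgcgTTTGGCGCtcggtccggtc
Suz12, chr11:79992856-79993135, plus strand: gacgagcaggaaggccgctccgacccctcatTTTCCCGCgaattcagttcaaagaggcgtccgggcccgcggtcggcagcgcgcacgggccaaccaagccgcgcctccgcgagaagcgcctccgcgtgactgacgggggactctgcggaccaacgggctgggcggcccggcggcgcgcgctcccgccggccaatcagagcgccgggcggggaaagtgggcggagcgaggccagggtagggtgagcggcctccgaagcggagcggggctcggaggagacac
Ezh1, chr11:101226434-101226713, minus strand: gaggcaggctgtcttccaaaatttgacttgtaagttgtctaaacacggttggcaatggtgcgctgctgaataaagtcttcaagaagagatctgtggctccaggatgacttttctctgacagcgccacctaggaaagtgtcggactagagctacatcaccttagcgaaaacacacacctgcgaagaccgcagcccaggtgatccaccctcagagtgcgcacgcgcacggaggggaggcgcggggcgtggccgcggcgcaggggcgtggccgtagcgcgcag

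Of 32851 windows of that length in the RefSeq table, 2.12% hold such a word. The 10 Polycomb genes have 12 windows, and 3 genes have a window with one: Ezh2, Suz12 and Phf19, whose match begins 208 bases before its start. These letters are a description of the sequence, not evidence of binding. Ezh2, Suz12 and Ezh1 were picked by their profiles, and an action of E2F factors was not tested.

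The deposited intensities are linear with a floor of 100, where 52.1% to 54.3% of probe sets lay on any 1 array. Probe sets brighter than that had an array median between 347 and 388. Control identity was checked on marker genes. The ESC markers Sox2 and Nanog had 3829 and 5019 in ESC and lay at the floor in MEF and SC4, while the probe set of Pou5f1 gave 123 in ESC and 105 in MEF and did not tell these apart. The summed intensity of 11 fibroblast markers was 6120 to 15513 on the reprogramming arrays, 1826 in SC4 and 3590.0 in ESC, against 49569 in MEF. In unseparated samples, fewer cells of a type and less RNA per cell cannot be told apart.

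Ezh2, the main PRC2 methyltransferase of dividing cells, was at one level on all reprogramming arrays and far lower in fibroblasts. Its intensity at day 6 was 2268 in CD49d+, 2465 in CD73+, 2366 in CD73- and 2294 in unsorted cells, and at day 9 it was 2412, 2251, 2329 and 2056 in the same order. SC4 had 2527 and ESC 3835, against 696 in MEF. The 8 reprogramming arrays spanned 0.26 log2 units among themselves and stood 1.56 to 1.83 log2 units above MEF. All 8 were below SC4 and below ESC, by 0.04 to 0.30 and by 0.64 to 0.90 log2 units.

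Suz12, the scaffold subunit of PRC2, was higher on every reprogramming array than in MEF too, but unsorted cells stood apart. At day 6 CD49d+, CD73+ and CD73- cells had 1923, 2266 and 2135, against 1472 in unsorted cells. At day 9 they had 2074, 2377 and 2378, against 1301. SC4 had 2076 and ESC 2792, against 676 in MEF.

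Eed, which binds the methylated histone and stimulates the enzyme, was highest in CD73- cells among the reprogramming arrays. CD49d+ and CD73+ cells had 781 and 1032 at day 6, against 1244 in CD73- and 975 in unsorted cells. At day 9 CD49d+ and CD73+ cells had 943 and 1031, against 1379 in CD73- and 957 in unsorted cells. The day 9 CD73- value was the highest of the 11 arrays, next to 1377 in ESC, while SC4 had 1099 and MEF 525. At day 6 Ezh2 and Suz12 had the same order over the sorted populations, with CD73+ cells highest and CD49d+ cells lowest, and Eed had another. At day 9 they did not share an order. Ezh2 was then highest in CD49d+ (2412) and lowest in CD73+ cells (2251), and Suz12 was lowest in CD49d+ cells (2074).

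Ezh1, the related methyltransferase known mainly from resting and differentiated cells, followed the sort. CD49d+ and CD73+ cells had 682 and 591 at day 6 and 737 and 681 at day 9, against 358 and 377 in CD73- cells and 484 and 507 in unsorted cells. CD73- cells were at the level of MEF (378), poised cells were near SC4 (720.2), and ESC was highest at 1123. Poised and CD73- values did not overlap, and unsorted cells lay between them on both days.

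Jarid2, a partner that recruits PRC2 in stem cells, ranged over 3.13 log2 units, the widest of the 7 genes above the floor on every array. CD49d+ and CD73+ cells had 835 and 1166 at day 6, against 673 in CD73- and 599 in unsorted cells. At day 9 CD49d+ and CD73+ cells had 818 and 1063, against 736 in CD73- and 530.2 in unsorted cells. SC4, at 1921, was above all 8 reprogramming arrays, ESC had 3206 and MEF 366. CD73+ cells were the highest reprogramming population on both days and unsorted cells the lowest.

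Mtf2, a Polycomb-like partner of PRC2, was dim and lay at the floor in MEF. Its 8 reprogramming values ran from 202 to 283 with a median of 260.1, SC4 had 323 and ESC 875. Phf19, another Polycomb-like partner, lay near the floor throughout. CD49d+ cells had 156 at day 6 and 155 at day 9. CD73+ cells had 122 and 113, and CD73- and unsorted cells lay at the floor on both days. SC4 had 135 and ESC 130.5, and MEF was at the floor. Phf19 passed the filter on dim genes only through the arrays where it is above the floor, so its differences from a group at the floor had to point toward those arrays. It is therefore described and not counted among the tested genes in such comparisons.

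Among the PRC1 genes, Rnf2, the ubiquitin ligase, was nearly flat. It ran from 1752 to 2185 on the reprogramming arrays, with 2108 in SC4, 2346 in ESC and 1953 in MEF, a range of 0.42 log2 units. Bmi1, a Ring finger partner known for repressing the Cdkn2a locus, was above the floor only in CD73+ cells, at 108 and 103, and no statement about its level is possible from this probe set. It stays among the 9 genes counted below, though its differences between populations could only be level or point toward CD73+ cells. Cbx7, the main chromobox protein of stem cell PRC1, was set apart by ESC, with 1697 against 231 in MEF. At day 6 CD49d+ and CD73+ cells had 341 and 330.0, against 247 in CD73- and 262 in unsorted cells. At day 9 they had 356 and 299, against 241 in CD73- and 297 in unsorted cells, and SC4 had 349.7. The highest reprogramming array was still 2.25 log2 units below ESC.

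**Figure D1:**
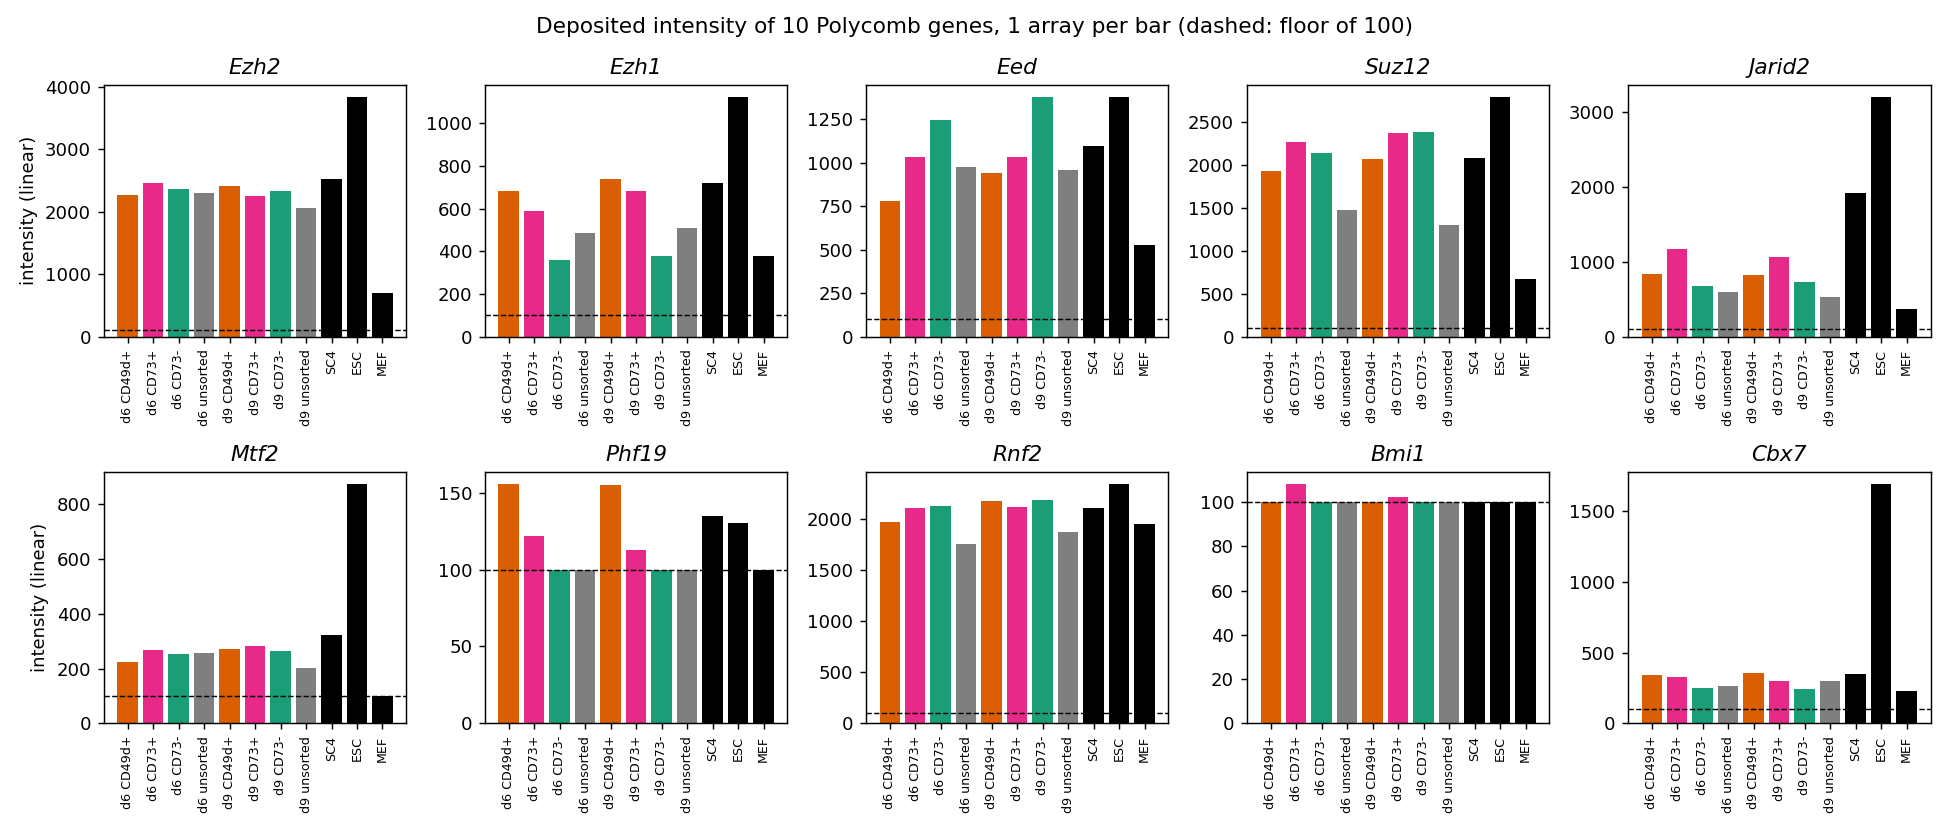
Deposited intensity (linear) of the 10 genes on the 11 arrays, 1 bar per array, with the floor of 100 dashed. Orange bars are CD49d+, pink CD73+, green CD73- and grey unsorted cells at day 6 (d6) and day 9 (d9), and black bars are SC4, ESC and MEF. Ezh2 stands at 2056 to 2465 on the 8 reprogramming arrays against 696 in MEF, and Cbx7 at 241 to 356 against 1697 in ESC.

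How these genes differ between the end points was asked first, without a test since each control is 1 array. Of the 10 genes, 7 were at least 1 log2 unit (2-fold) higher in ESC than in MEF and 0 lower. By that rule 12.0% of 14301 genes that passed the filter were higher and 11.9% lower. The median difference of the 10 was 1.81 log2 units, beside 0 over all genes. Jarid2 was 8.76-fold and Cbx7 7.33-fold higher in ESC, Mtf2 at least 8.75-fold, Ezh2 5.51-fold, Suz12 4.13-fold, Ezh1 2.97-fold and Eed 2.62-fold. Rnf2 differed 1.20-fold, and Phf19 and Bmi1 were at or near the floor. Mtf2, Phf19 and Bmi1 lay at the floor in MEF, so their differences from MEF in any count could not be lower. Between SC4 and MEF 5 genes were at least 2-fold higher in SC4 and 0 lower (background 11.0% higher and 11.5% lower): Jarid2 (5.25-fold), Ezh2 (3.63-fold), Mtf2 (at least 3.23-fold), Suz12 (3.07-fold) and Eed (2.09-fold). Between SC4 and ESC 0 of the 10 genes were at least 2-fold higher in SC4 and 2 lower, Cbx7 (4.85-fold) and Mtf2 (2.70-fold), beside 5.42% higher and 7.39% lower of all genes. Cbx7 in SC4 was 1.51-fold above MEF.

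Of the 10 genes, 6 were above MEF on all 8 reprogramming arrays (Ezh2, Eed, Suz12, Jarid2, Mtf2 and Cbx7), where 30.1% of all genes were. At least 1 log2 unit above MEF on all 8 were Ezh2 and Mtf2, 2 of 10 beside 4.89% of all genes, and with each array centred on its median only 1 of them was. For 7 of the 10 genes all 8 arrays lay below ESC, beside 26.5% of all genes. They lay at least 1 log2 unit below ESC for Jarid2, Mtf2 and Cbx7, 3 of 10 beside 4.1% of all genes. The 8 arrays share the single MEF and ESC arrays in these counts. For Mtf2, at the floor in MEF, the direction against MEF was fixed and the size is a bound.

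The place of each gene between the end points was measured as its log2 difference from MEF in percent of the ESC minus MEF difference. It was defined for the 6 genes at least 1 log2 unit higher in ESC and above the floor in MEF. Ezh2 lay at 63.5% to 74.1% over the 8 reprogramming arrays and Suz12 at 46.2% to 88.7%. Over the 1374 genes of the same rule the median position of the 8 arrays ran from 59.0% to 73.9%. Jarid2, at 17.1% to 53.4%, and Cbx7, at 2.02% to 21.6%, were below that range of medians on every array. The spread of single genes around the median was not computed. Jarid2 and Cbx7 also had wider ESC minus MEF spans, 3.13 and 2.87 log2 units, beside a median of 1.47 over the 1374 genes. Ezh1 was at -4.92% and -0.15% in CD73- cells and at 41.0% to 61.4% in poised cells. SC4 stood at 76.4% for Jarid2 and at 20.7% for Cbx7, beside a median of 77.9% over the 1374 genes.

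**Figure D2:**
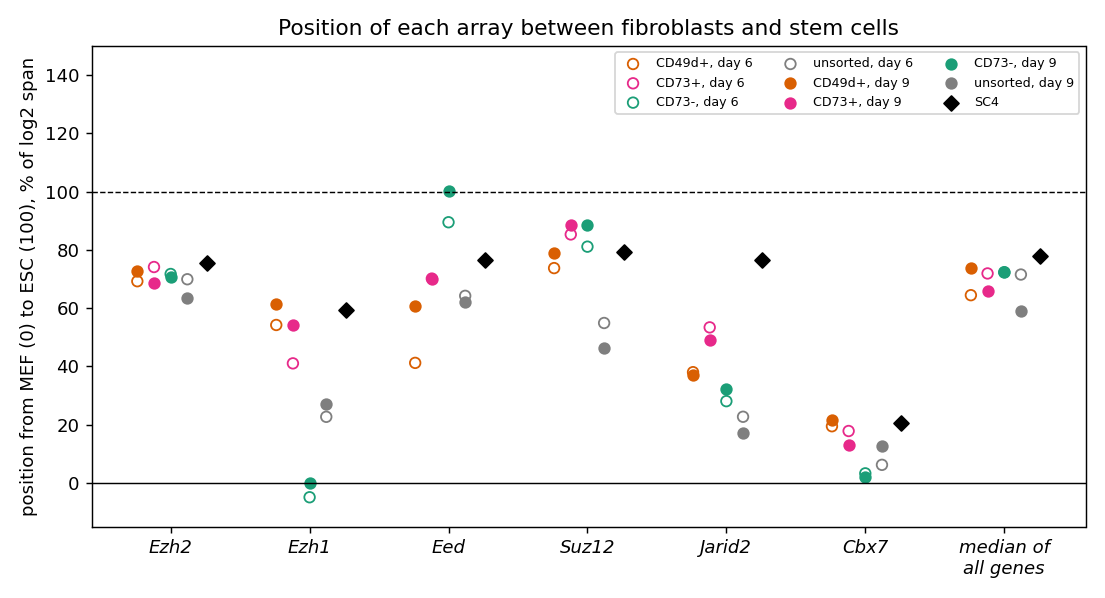
Position of each array between MEF (0) and ESC (100) in percent of the log2 span (vertical axis), for 6 Polycomb genes and the median of 1374 genes of the same rule. Points are single arrays, open at day 6 and filled at day 9, and diamonds are SC4. Cbx7 stays at 2.02% to 21.6% on all reprogramming arrays while Ezh2 is at 63.5% to 74.1%.

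The sort on CD73 and CD49d separates the populations that the labels call poised and non-poised, and the question was which Polycomb genes differ between them. Poised cells (the mean of CD49d+ and CD73+) had more Ezh1, Jarid2 and Cbx7 and less Eed than CD73- cells. The log2 differences were 0.87 ± 0.0555 for Ezh1 (SE, 1.83-fold, limma, adjusted p = 0.00473), 0.45 ± 0.0790 for Jarid2 (1.36-fold, adjusted p = 0.0299), 0.44 ± 0.0803 for Cbx7 (1.36-fold, adjusted p = 0.0323) and -0.48 ± 0.0806 for Eed (1.39-fold lower, adjusted p = 0.0273). The Cbx7 call was lost with quantile normalization and with p-values adjusted as if over all 22180 named genes (limma, adjusted p = 0.0634 and 0.0539). Phf19, at the floor in CD73- cells, was at least 1.35-fold higher. Each of the 4 called genes kept its direction in both poised populations at both days, and poised and CD73- values did not overlap for any of them. The error is the disagreement of a difference between day 6 and day 9 over the 8 arrays, which may be days of 1 culture. These 4 of the 9 genes other than Phf19, 3 higher and 1 lower, compare with 12.0% of 13313 genes tested, 7.16% higher and 4.85% lower, and with centring 49.9% of all calls in place of 59.6% were higher.

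The other 5 genes did not pass, of which Bmi1, at the floor in CD73- cells, could only be level or higher. Ezh2 differed by 0.00 ± 0.0706 log2 units between poised and CD73- cells (limma, adjusted p = 1), Suz12 by -0.07 ± 0.0840, Rnf2 by -0.04 ± 0.0551, Mtf2 by 0.01 ± 0.129 and Bmi1 by 0.04 ± 0.0504. Of the methyltransferase genes, Ezh1 differed by 0.83 at day 6 and 0.91 at day 9, and Ezh2 by -0.0011 and 0.00049. The calls rest on few arrays. Without the day 6 CD73-, the day 6 unsorted or the day 9 CD73- array 0 of the 9 genes passed in limma, with 4 at an unadjusted p under 0.05 each time. Ezh1 alone passed without either CD73+ array, without the CD49d+ array of day 6 or without unsorted cells of day 9, and 2 genes passed without day 9 CD49d+ (Eed and Ezh1). The unsorted arrays enter neither side of this difference, only its spread, and on the 6 sorted arrays the same 4 genes passed.

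**Figure D3:**
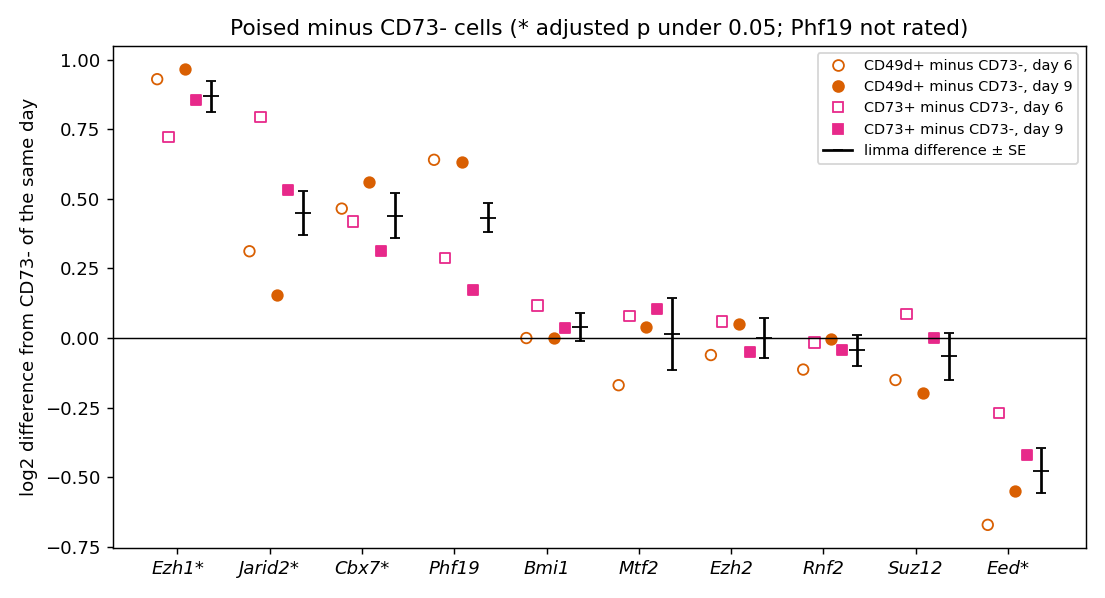
Log2 difference of each poised array from the CD73- array of the same day (vertical axis), for the 10 genes in order of the fitted difference. Circles are CD49d+ and squares CD73+ cells, open at day 6 and filled at day 9, the black mark is the limma difference with its SE, and a star marks an adjusted p under 0.05 (not given for Phf19). The 4 points of Ezh1 lie between 0.72 and 0.97 and those of Eed between -0.67 and -0.27.

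Taken apart, the poised gates gave partly different members. In CD73+ minus CD73- cells Ezh1 (0.79 ± 0.0641, SE, limma, adjusted p = 0.0111) and Jarid2 (0.66 ± 0.0912, adjusted p = 0.025) were higher, 2 of 9 beside 8.0% of all genes (5.06% higher and 2.94% lower). In CD49d+ minus CD73- cells Ezh1 (0.95 ± 0.0641, limma, adjusted p = 0.00572) and Cbx7 (0.51 ± 0.0927, adjusted p = 0.0311) were higher and Eed (-0.61 ± 0.0930, adjusted p = 0.0223) was lower, 3 of 9 beside 13.3% of all genes (7.69% higher and 5.66% lower). Of the calls over all genes 57.6% were higher, and 44.8% with each array centred. Phf19 was at least 1.55-fold higher in CD49d+ cells. Cbx7 was lost here too in limma with quantile normalization (adjusted p = 0.0581) and with adjustment as if over all 22180 named genes (adjusted p = 0.0518). These comparisons share the CD73- arrays. Without either CD73- array or without the day 6 unsorted array 0 of the 9 passed in limma in both, with 2 to 4 at an unadjusted p under 0.05. The same holds without either CD73+ array or day 9 unsorted for the CD73+ comparison, and without day 6 CD49d+ for the CD49d+ comparison. In the CD49d+ comparison Ezh1 alone passed without day 6 CD73+, day 9 CD73+ or day 9 unsorted.

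The direct difference CD49d+ minus CD73+ was called for 0 of the 10 genes (limma, Benjamini-Hochberg, 3 at an unadjusted p under 0.05), beside 0.03% of all genes. Jarid2 stood at -0.43 ± 0.0912 (adjusted p = 0.0803), Phf19 at 0.41 ± 0.0618 (adjusted p = 0.0609) and Eed at -0.27 ± 0.0930 (adjusted p = 0.173). Jarid2 passed with each array centred on its median (limma, adjusted p = 0.0374, the lowest of its alternatives, the highest being 0.353). Phf19, whose spread the arrays at the floor understate, passed without the day term (limma, adjusted p = 0.0477, the lowest of its alternatives, the highest being 0.353). CD49d+ and CD73+ values did not overlap for these 3 genes, nor for Ezh1, Suz12, Cbx7 and Bmi1. Each gate has only 1 array a day, and Bmi1 lay at the floor in CD49d+ cells. The share of all genes without overlap was not counted, so no difference between the gates is read from this.

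Between day 6 and day 9 no Polycomb gene was called, and neither was any other gene (limma, 0.0% of 13313, 1545 at an unadjusted p under 0.05, 0 of them among the 10 genes). The spread here is that of the day difference among the 4 populations, which are not replicates of a day. Ezh1 had the largest day 9 minus day 6 difference of the 10 genes, 0.12 ± 0.0453 log2 units (limma, adjusted p = 0.433). Eed stood at 0.10 ± 0.0658, with 0.27 in CD49d+ and 0.15 in CD73- cells and -0.0017 and -0.03 in CD73+ and unsorted cells. Ezh2 stood at -0.06 ± 0.0577. Mtf2 moved most in a single population, -0.35 in unsorted cells against 0.26 in CD49d+ cells.

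The unsorted arrays were set against all sorted arrays after their Suz12 values had been seen. Suz12 was 0.66 ± 0.0792 log2 units (SE, 1.58-fold) higher in sorted cells (limma, adjusted p = 0.0232) and Jarid2 0.62 ± 0.0745 (1.54-fold, adjusted p = 0.0233), without overlap for either. Phf19 lay at the floor in unsorted and in CD73- cells, as given above. Suz12 prompted this comparison, so its adjusted p is no independent support and it is left out of the count. Of the members other than Phf19 and Suz12 only Jarid2 was called, higher in sorted cells. Of all genes 8.54% were called (4.38% higher and 4.16% lower). Rnf2 was below all 6 sorted arrays in unsorted cells of both days, at 0.22 ± 0.0520 (adjusted p = 0.0648). Without day 9 CD49d+ 2 members passed (Jarid2 and Suz12), and 0 of the 9 passed in limma without any 1 of the other 7 arrays, with 3 or 4 at an unadjusted p under 0.05. Other genes moved with this split. Of the 19 proliferation genes 1 was called, higher, with a list median of 0.03 beside 0.0012 over all genes. This was Mki67, which had 2763, 3179 and 2892 in CD49d+, CD73+ and CD73- cells at day 6 and 2916, 2957 and 2839 at day 9, against 2283 and 1851 in unsorted cells. Cdk1, a mitotic kinase, had 2124 to 3547 in sorted cells against 3681 and 3239 in unsorted cells and was not called. Of 11 fibroblast markers 1 was called, Dcn, lower, with 1231 to 2320 in sorted cells against 2877 and 3005 in unsorted cells. Their median was -0.79, 6 had an unadjusted p under 0.05, and their sum was 6120 to 12423 in sorted cells against 11784 and 15513 in unsorted cells. Krt14, a keratin of epidermis, had 163 to 252 in sorted cells against 943 and 989 in unsorted cells. Utf1 was called lower and Laptm5 higher in sorted cells, both with overlapping values. The part of these cells and genes in the Suz12 and Jarid2 differences was not tested.

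**Figure D4:**
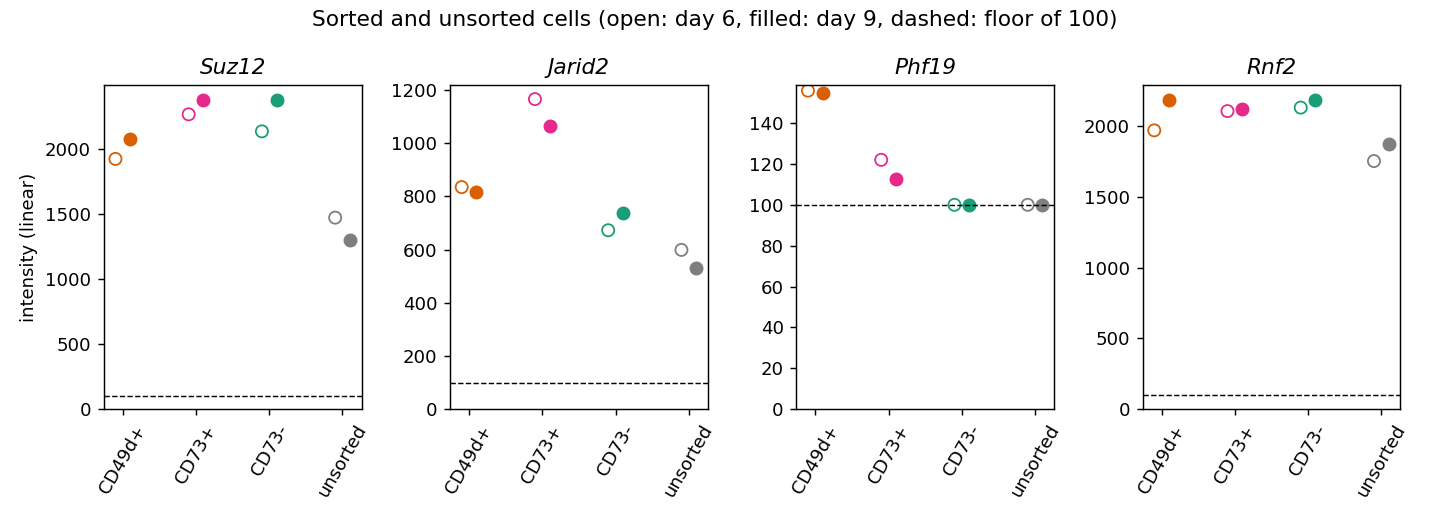
Deposited intensity (linear, vertical axis) of Suz12, Jarid2, Phf19 and Rnf2 in CD49d+, CD73+, CD73- and unsorted cells, open at day 6 and filled at day 9, 1 array per point, with the floor of 100 dashed. Suz12 is at 1923 to 2378 in sorted cells against 1472 and 1301 in unsorted cells.

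Genes with the most similar profile were sought among 10540 genes above the floor on all 11 arrays, by the root mean square (RMS) difference of log2 values centred on each gene's mean. This is a description over arrays that share cultures and controls. Nearest to Ezh2 were Ncapd2, a condensin subunit (RMS 0.0837), Mcm2, a replicative helicase subunit (0.0841), and Timeless, a replication fork factor (0.098), where the median gene was at 0.599. Nearest to Suz12 were E2f8, a cell cycle repressor (0.138), Usp37, a deubiquitinase (0.156), and Ccdc14 (0.156). Ezh1 had less close neighbours, the Wnt receptor Fzd5 (0.198), the transporter Abca7 (0.204) and the arrestin family gene Arrdc3 (0.208). Nearest were Gtf2e2, Gmps and Luc7l to Eed (0.118 to 0.130), Tmem170, Septin1 and Rfx2 to Cbx7 (0.173 to 0.203), and Egln3, C2cd5 and Gm38396 to Jarid2 (0.294 to 0.324). Of these, Ncapd2 holds the word TTTGGCGC, like Ezh2, beginning 8 bases before its start, and Mcm2, Timeless, E2f8, Usp37 and the other neighbours with a window hold none of the 4 words.

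**Figure D5:**
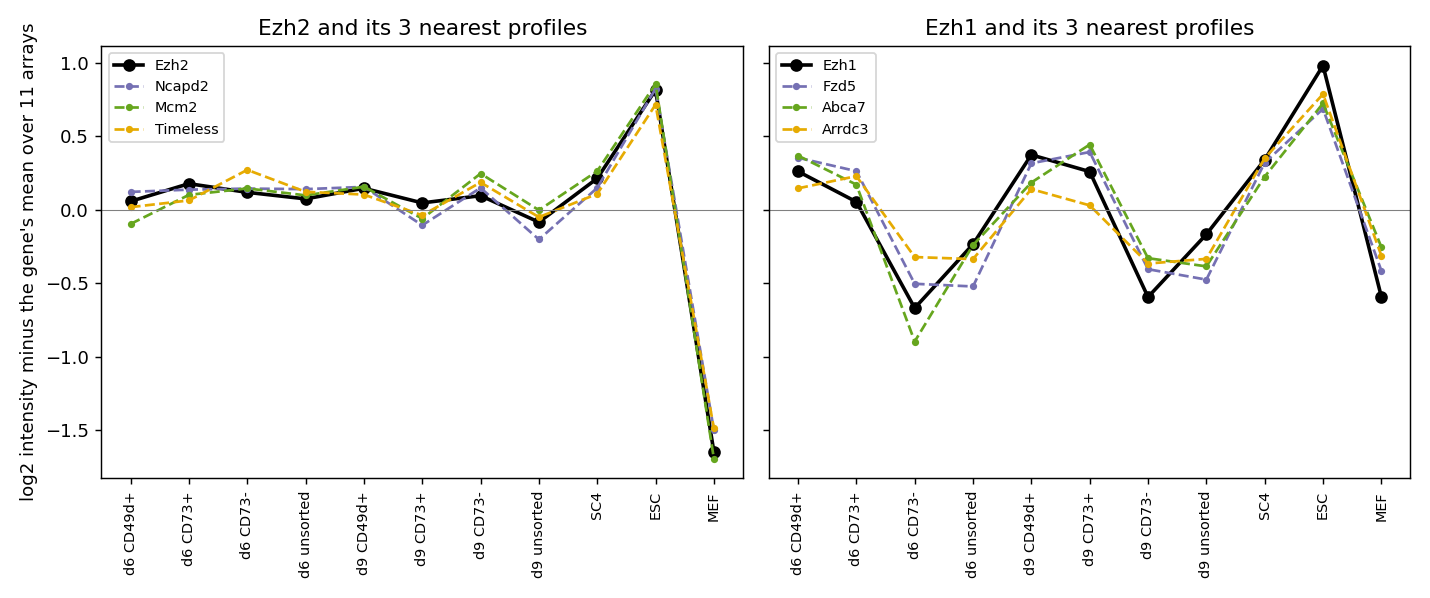
Log2 intensity minus each gene's mean over the 11 arrays (vertical axis) for Ezh2 (left) and Ezh1 (right), solid black, with their 3 nearest profiles dashed, 1 point per array. Ezh2 and its neighbours share a low value in MEF and a level course over the reprogramming arrays. Ezh1 and its neighbours are lower in CD73- than in poised cells. Fzd5 and Arrdc3 are about as low in unsorted cells, where Ezh1 lies between.

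Proliferation genes were read beside Ezh2 from a list of 20, of which 19 were on the array by this rule. Of these, 17 were at least 1 log2 unit higher in ESC than in MEF, beside 12.0% of all genes. On all 8 reprogramming arrays 15 were, beside 4.89% of all genes, with 0 lower in either count. Their summed intensity was 37542 to 42925 on the reprogramming arrays, 44513 in SC4 and 50618 in ESC, against 12974 in MEF. Cdc6 (3.53 log2 units at least, MEF being at the floor), Mcm3 (3.01), Mcm6 (2.98) and Top2a (2.86), all of replication and chromosome handling, had the largest ESC minus MEF differences. Their part in the Ezh2, Eed and Suz12 differences was not tested. Of all genes, 7.16% were called higher and 4.85% lower in poised than in CD73- cells. Between poised and CD73- cells 1 of the 19 was higher, E2f2, and 1 lower, Ccne1 (0.42 ± 0.0756 and -0.31 ± 0.0537, limma, adjusted p = 0.0314 and 0.0289, passing in 0 and 1 of the 8 fits that leave out 1 array), with a median of -0.08 beside -0.01 over all genes.

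The remaining Polycomb genes were taken from lists. In the poised comparison 7.16% of all genes were called higher and 4.85% lower. Of 6 other PRC2 genes, Epop, a stem cell partner of PRC2, was higher in poised than in CD73- cells (0.38 ± 0.0509, limma, adjusted p = 0.0169), 5 were not called, and the median was -0.03. Epop had 695 and 534 in CD49d+ and CD73+ cells at day 6 and 758 and 552 at day 9, against 474 and 494 in CD73- cells. Of 21 other PRC1 genes 17 were on the array by this rule. Phc1, a polyhomeotic subunit, was higher in poised cells (1.29 ± 0.133, 2.44-fold, adjusted p = 0.00938), 16 were not called, and the median was -0.0043. It had 1359 and 1161 in CD49d+ and CD73+ cells at day 6 and 1550.0 and 1932 at day 9, against 467 and 782 in CD73- cells. Epop and Phc1 each passed in 3 of the 8 fits that leave out 1 array.

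Against MEF, Phc1 was also the gene of this list with the largest difference, at 3592 in ESC against 399.9 in MEF (8.98-fold). Pcgf5 (2.07 log2 units), Pcgf6 (1.94) and L3mbtl2 (1.51), members of variant PRC1 complexes, followed. At least 1 log2 unit higher in ESC were 7 of 17 and 0 were lower, beside 12.0% and 11.9% of all genes. Of the 6 other PRC2 genes Epop was higher (1.28) and Phf1, a Polycomb-like partner, lower (-1.01) by that rule, with Lcor at 0.55 and Rbbp7 at 0.46. Phf1 had 191 to 251 on the reprogramming arrays, 248 in SC4 and 229 in ESC, against 460.1 in MEF.

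Of 7 genes that act against Polycomb marks, Kdm6a, a demethylase of the PRC2 mark, was higher in poised cells (0.36 ± 0.0534, limma, adjusted p = 0.0211, passing in 1 of the 8 fits that leave out 1 array). The other 6 were not called, with a list median of -0.06, where 7.16% of all genes were called higher and 4.85% lower. Kdm6a had 1932 and 2479 in CD49d+ and CD73+ cells at day 6 and 2065 and 2549 at day 9, against 1653 and 1844 in CD73- cells. By the rule of 1 log2 unit 0 of the 7 differed between ESC and MEF, beside 12.0% higher and 11.9% lower of all genes.

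Known Polycomb targets, a list of 34 with 23 tested, showed 0 higher and 2 lower in poised cells, beside 7.16% and 4.85% of all genes. The list median was -0.08. Hand1, a factor of heart and placenta, stood at -0.85 ± 0.172 (limma, adjusted p = 0.0404) and Sim1 at -0.49 ± 0.102 (adjusted p = 0.0439), each passing in 1 of the 8 fits that leave out 1 array. Hand1 had 123 and 137 in CD49d+ and CD73+ cells at day 6 and 147 and 134 at day 9, against 299 and 198 in CD73- cells. Cdkn2a, the Ink4a and Arf locus that PRC1 represses, had 719.9 to 1006 on the reprogramming arrays, 522 in SC4 and 130.4 in ESC, against 731 in MEF. It differed by -0.25 ± 0.0944 between poised and CD73- cells (adjusted p = 0.158). Of 28 targets that passed the filter 3 were at least 1 log2 unit higher in ESC than in MEF and 7 lower, beside 12.0% and 11.9% of all genes. Farthest apart were Hoxd13 (-3.06), Cdkn2a (-2.49), Tbx5 (at least 5.58-fold lower, at the floor in ESC) and Sox1 (at least 5.01-fold higher, at the floor in MEF).

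Markers of other cells were read beside the poised comparison, where 7.16% of all genes were called higher and 4.85% lower. The 11 fibroblast markers summed to 12423 and 8162 in CD49d+ and CD73+ cells at day 6 and 8141 and 6120 at day 9, against 8436 and 10316 in CD73- cells, with Prrx1 higher and Col3a1 and Postn lower in poised cells. Postn had 2042 and 253 in CD49d+ and CD73+ cells at day 6 and 1263 and 350 at day 9, against 2046 and 3496 in CD73- cells. It was not called in CD49d+ minus CD73- cells. Of 12 stem cell markers 9 or 10 lay at the floor in each sorted array, Utf1 alone was called, lower in poised cells (-1.06 ± 0.133, limma, adjusted p = 0.0144), and their sum was 1340.1 to 1694 in poised cells against 1690 and 2186 in CD73- cells. Of 7 endothelial markers Tek and Cldn5 were higher in poised cells, while Tie1 and Emcn lay at the floor on every array. Of 8 macrophage and blood cell markers Laptm5 was higher, while Ptprc, Csf1r, Tyrobp, Fcer1g and Adgre1 lay at the floor on every array. Of the muscle and keratinocyte markers 0 were called in limma, 0 also at an unadjusted p under 0.05. These marker genes passed in 2 to 4 of the 8 fits that leave out 1 array. The part of such cells in the Polycomb differences was not tested.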

How the data were processed

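The deposited values are linear intensities of 41345 probe sets on 11 arrays. The authors used Partek, named without a version, per the submitters' processing notes. How these intensities were summarised, background-corrected and scaled was not given in the sources used here. Labelling used Affymetrix whole-transcript reagents, per the labels' protocols. Symbols came from GEO's platform annotation, updated through gene identifiers in RefSeq (GRCm38.p6). Of the probe sets, 23521 had 1 symbol, 1814 had more and 16010 had no symbol, and those with 1 were used. A gene with several probe sets was given by the brightest. The filter kept 14301 genes above 100 on at least 1 array, and 13313, above it on a reprogramming array, were tested. On log2 intensity, limma 3.58.1 (R 4.3.3) fitted 4 populations and 2 days over 8 arrays, with 3 residual degrees of freedom per gene and a prior of 2.12. P-values were adjusted by Benjamini-Hochberg over all 13313 genes at a threshold of 0.05. The script was tested on simulated data. The number of arrays limits the precision, and nothing in the labels says that the days are separate cultures, so p-values reflect how well the days agree and the spread may be technical. A value at the floor is a bound. Members and lists were chosen with earlier results of these data known. All 10 members are named, and list genes are named where they passed or, between single arrays, as those with the largest difference. Alternatives were other scalings, only genes above the floor on all 8 reprogramming arrays, adjustment as if over all 22180 named genes, and another probe set rule. Further ones were the sorted arrays alone, no day term and leaving out each array.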

Additional observations from a re-analysis of the deposited data

Results flagged for a closer look

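For 6 comparisons of a member between single populations, the difference had opposite signs at day 6 and day 9, each day being 1 array against 1, and the change between days was not tested. CD73+ minus CD73- stood at 0.06 at day 6 and -0.049 at day 9 for Ezh2 and at 0.09 and -0.00044 for Suz12 (log2 units). CD49d+ minus CD73- stood at -0.06 and 0.050 for Ezh2 and at -0.17 and 0.040 for Mtf2. CD49d+ minus CD73+ stood at -0.12 and 0.10 for Ezh2 and at -0.10 and 0.042 for Rnf2. None of these genes was called in any of these comparisons. The share of all genes with such a change of sign was not counted, so the 6 are only listed.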

How the results depend on the processing

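Of 14 member differences that passed, 0 changed direction in 204 refits, and 94 of these refits missed the threshold. In many refits the difference itself was the same, so its direction could not change. These altered only the filter, adjustment, probe set rule or day term, or left out arrays outside the comparison. The 14 differences and their refits include Phf19, whose direction the filter fixed. The sorted minus unsorted difference of Phf19 missed the threshold with centring and with adjustment as if over all 22180 named genes. The counts of called members below leave Phf19 out. Leaving out 1 array gave 0 to 2 called members for poised minus CD73- cells (4 with all arrays) and for CD73+ minus CD73- (2). It also gave 0 to 2 for CD49d+ minus CD73- (3) and for sorted minus unsorted cells (2, a comparison added after seeing the Suz12 values). Such fits have 2 residual degrees of freedom in place of 3. For CD49d+ minus CD73+ the count was 1 with centring (Jarid2), against 0. Without the day term, in effect no replicate block, Phf19 alone passed and is not counted. For all 8 reprogramming arrays at least 1 log2 unit above MEF it was 1 with centring, against 2. Under the other scalings, filter, adjustment over more genes, probe set rule and the 6 sorted arrays the poised count was 3 or 4. Over all genes 994 to 2280 passed for poised minus CD73- in these settings, against 1599, and 1 to 1775 without 1 array. With all arrays or the 6 sorted arrays, the count over all genes ran from 497 to 1627 for CD73+ minus CD73- (1065), from 1007 to 2481 for CD49d+ minus CD73- (1777), from 0 to 657 for CD49d+ minus CD73+ (4) and from 454 to 1740 for sorted minus unsorted (1137). Without 1 array it ran from 0 to 1009, 1 to 1204, 0 to 0 and 0 to 564 in the same order. For day 9 minus day 6, 110 genes passed with centring and 43 on genes above the floor on all 8 arrays, 0 of them members. Phf19 and Bmi1 lie too near the floor for a fold change to be read as more than a bound.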
